A study of Drosophila melanogaster with 2 samples.

Results

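Chromatin bound by a fusion of the CG10321 protein with enhanced green fluorescent protein (eGFP) was mapped at 10 nuclear receptor genes of Drosophila melanogaster, among 13968 protein-coding genes. The genes were taken from a list: EcR, usp, Eip75B, Hr3, ftz-f1, Hr39, Hr78, Hnf4, ERR and svp. The chromatin came from whole transgenic embryos collected between 0 and 24 h, was sonicated to fragments of 200 to 800 bp and was precipitated with an antibody against GFP, in 2 biological replicates of a single group. The promoter that drives the fusion gene and the state of the native CG10321 gene were not stated in the labels. Embryos of all ages and tissues were pooled, so a site bound in few cells and a site bound weakly in many cannot be told apart.

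Nuclear receptors are transcription factors with a zinc finger domain that reads DNA and a pocket that can hold a small lipophilic ligand. In flies the steroid 20-hydroxyecdysone binds EcR, which works as a heterodimer with usp and switches on further receptor genes, among them Eip75B and Hr3. In a timed sequence Hr3 then induces ftz-f1. Pulses of this hormone occur in mid-embryogenesis as well as before each moult and at metamorphosis. Hnf4 and ERR are known as regulators of metabolism, and svp for cell fate choices in the eye, the heart and the nervous system.

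The data are peak lists on the dm6 assembly. The conservative list of both replicates, with 3006 peaks on the chromosome arms, is the list meant wherever none is named. Each peak has a summit and a signal value from the authors' peak caller, whose scale is not given in the sources used here. Signal values are therefore read only within a list. A peak belonged to a gene when its summit lay in the gene or within 10 kb of it, and a gene was called bound at a transcription start site (TSS) when a summit lay within 500 bp of the 5′ end of an annotated transcript. Library depth is unknown, since the lists give no counts of reads, and no control library was analysed here. The replicates' own thresholded lists held 1996 and 2128 peaks on the arms, and a further thresholded list drawn from both held 3457.

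The peaks of highest signal at these genes differed in the sequence under their summits. The 101 bases around the summit are shown, read 5′ to 3′ on the strand of the receptor gene, for a selection. It holds the strongest peak of svp, ftz-f1, Eip75B, Hr39, Hnf4 and usp, and further peaks of some of these genes, most of them with a GA-rich word. Other summits, those of EcR, Hr3, Hr78 and ERR among them, are not shown. Capitals mark 3 words and their reverse complements. They are GAGAG, the core of the GAGA element, a related word that reads GAGCGAG, and the hexamer of many nuclear receptor sites, which reads AGGTCA. The selection favours windows with the first 2 words. Of all 38 summits at the 10 genes, 14 held GAGAG and 10 held GAGCGAG. The peaks at svp come first.
svp, signal 1311, chr3R:12280941-12281041, plus strand: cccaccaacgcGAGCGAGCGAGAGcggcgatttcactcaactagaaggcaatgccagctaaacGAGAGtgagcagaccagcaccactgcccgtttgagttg
svp, signal 366, chr3R:12279037-12279137, plus strand: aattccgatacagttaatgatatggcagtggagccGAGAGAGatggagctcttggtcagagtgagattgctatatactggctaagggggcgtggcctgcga

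At ftz-f1 the 4 strongest summits and the fifth, which holds a long GA repeat, are on the minus strand, as is the gene.
ftz-f1, signal 702, chr3L:18801430-18801530: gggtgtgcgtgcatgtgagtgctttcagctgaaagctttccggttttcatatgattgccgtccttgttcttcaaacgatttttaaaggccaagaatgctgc
ftz-f1, signal 491, chr3L:18759354-18759454: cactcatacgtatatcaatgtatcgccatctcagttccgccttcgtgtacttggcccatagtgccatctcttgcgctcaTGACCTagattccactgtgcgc
ftz-f1, signal 351, chr3L:18789550-18789650: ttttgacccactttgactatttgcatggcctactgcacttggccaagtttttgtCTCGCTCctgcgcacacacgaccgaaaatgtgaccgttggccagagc
ftz-f1, signal 292, chr3L:18771857-18771957: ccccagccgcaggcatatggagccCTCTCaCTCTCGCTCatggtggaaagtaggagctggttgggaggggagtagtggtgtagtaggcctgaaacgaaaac
ftz-f1, signal 121, chr3L:18787958-18788058: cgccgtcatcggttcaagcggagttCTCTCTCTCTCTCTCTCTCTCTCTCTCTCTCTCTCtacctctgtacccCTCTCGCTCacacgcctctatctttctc

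The Hr39 gene is read on the plus strand, and the other genes of this set on the minus strand. The Hr39 window of signal 147 belongs to a peak that no thresholded list holds.
Eip75B, signal 373, chr3L:18003335-18003435: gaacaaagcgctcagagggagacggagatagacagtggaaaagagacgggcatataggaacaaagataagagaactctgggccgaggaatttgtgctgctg
Eip75B, signal 169, chr3L:17949156-17949256: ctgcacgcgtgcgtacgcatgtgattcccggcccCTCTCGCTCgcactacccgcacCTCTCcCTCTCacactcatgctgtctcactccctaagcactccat
Hr39, signal 238, chr2L:21251913-21252013: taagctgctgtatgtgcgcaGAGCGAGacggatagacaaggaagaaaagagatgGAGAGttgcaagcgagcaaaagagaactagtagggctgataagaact
Hr39, signal 147, chr2L:21237446-21237546: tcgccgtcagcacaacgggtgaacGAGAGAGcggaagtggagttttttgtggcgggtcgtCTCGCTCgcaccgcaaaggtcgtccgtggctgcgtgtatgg
Hnf4, signal 183, chr2L:8692642-8692742: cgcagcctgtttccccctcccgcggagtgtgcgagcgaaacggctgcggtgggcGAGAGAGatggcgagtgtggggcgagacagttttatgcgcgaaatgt
usp, signal 318, chrX:2050262-2050362: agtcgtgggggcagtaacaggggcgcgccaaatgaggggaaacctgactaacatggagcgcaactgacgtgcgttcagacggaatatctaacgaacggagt
usp, signal 179, chrX:2037757-2037857: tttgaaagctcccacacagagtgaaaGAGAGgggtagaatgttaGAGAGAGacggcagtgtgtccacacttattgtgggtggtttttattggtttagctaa

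The promoter summit of ftz-f1, the intron summit of Eip75B and the strongest summit near usp, with signals of 702, 373 and 318, held none of these words in capitals. The svp promoter window holds GAGCGAG in a run that continues into GAGAG. In the ftz-f1 window of signal 121 the dinucleotide CT repeats without a break over 37 bases, and only 2 of the 3006 summits have a GA or CT run as long within 50 bp. In the window of signal 491 at ftz-f1 the hexamer stands as its reverse complement.

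All 10 nuclear receptor genes had a peak in or within 10 kb of the gene, against 45.9% of all protein-coding genes. Long genes offer more room for a peak, and 7 of the 10 genes span 10 kb or more. All of these 7 had a peak by the same rule, against 60.7% of the 1985 protein-coding genes of at least 10 kb. In each replicate's list alone all 10 genes had a peak too, against 35.3% of all genes in replicate 1 and 36.4% in replicate 2. A summit inside the gene itself was found for 8 of the 10 genes, against 9.12% of all genes, and for all 7 long ones, against 35.6% of long genes. The exceptions were usp and ERR, both short. The 10 genes were listed with earlier results of these data known, so these counts describe the genes and were not tested.

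A TSS was bound at 7 of the 10 genes, namely svp, ftz-f1, Eip75B, Hr3, Hr78, Hnf4 and ERR, against 10.9% of all protein-coding genes. EcR, usp and Hr39 were not bound at a TSS. The other thresholded list gave the same 7 genes, against 12.3% of all genes. In replicate 1 alone 5 were bound, without Eip75B and Hr3, against 7.9% of all genes. In replicate 2 alone 6 were bound, without Hr3, against 8.16%. The 10 genes have 33 distinct start sites, of which 10 were bound (30.3%), against 10% of the 19630 start sites of all protein-coding genes. A single summit accounts for the 3 bound start sites of Hr78, and another for the 2 of svp. Most receptor genes with several start sites were bound at some of them and not at others, and all 3 start sites were within reach of a summit only at Hr78. No such count is given for other genes with several start sites.

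**Figure D1:**
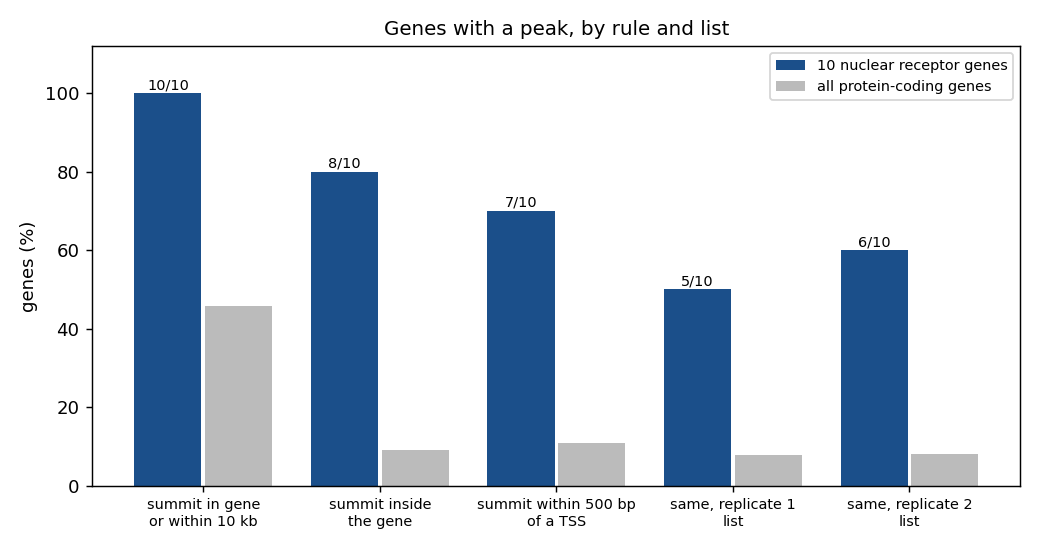
Bars show the percentage of genes with a peak, for the 10 nuclear receptor genes (blue, with counts above) and for all protein-coding genes (grey), by the conservative list in the first 3 pairs and by each replicate's own list in the last 2. The blue bars run from 5 of 10 to 10 of 10, and the grey bars from 7.9% to 45.9%.

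The 10 genes held 38 of the 3006 peaks (1.26%), in windows that cover 578 kb or 0.422% of the arms. That is 6.57 peaks per 100 kb at the receptor genes, against 2.19 over all arms. The arms include the Y chromosome and stretches far from genes, and no such density was computed for windows of other genes. Replicate 1 alone gave 25 peaks at these genes and replicate 2 alone gave 22. The peaks were spread unevenly. Of the 38 peaks 22 lay at ftz-f1 and Eip75B, and the other 8 genes held 16 peaks in 374 kb, or 4.28 per 100 kb. The signal values of the 38 peaks ran from 2.85 to 1311, with a median of 102, against a median of 100 over the whole list. Of the 38 peaks 20 lay at or above that median. The strongest peak of each gene had a median signal of 268, against 126 over all protein-coding genes with a peak, a figure that also grows with the number of peaks a gene has. In the replicates' own lists, where the signal values run lower (list medians of 70.4 and 72.6), the median of the strongest peaks at the 10 genes was 121 in replicate 1 and 136 in replicate 2.

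**Figure D2:**
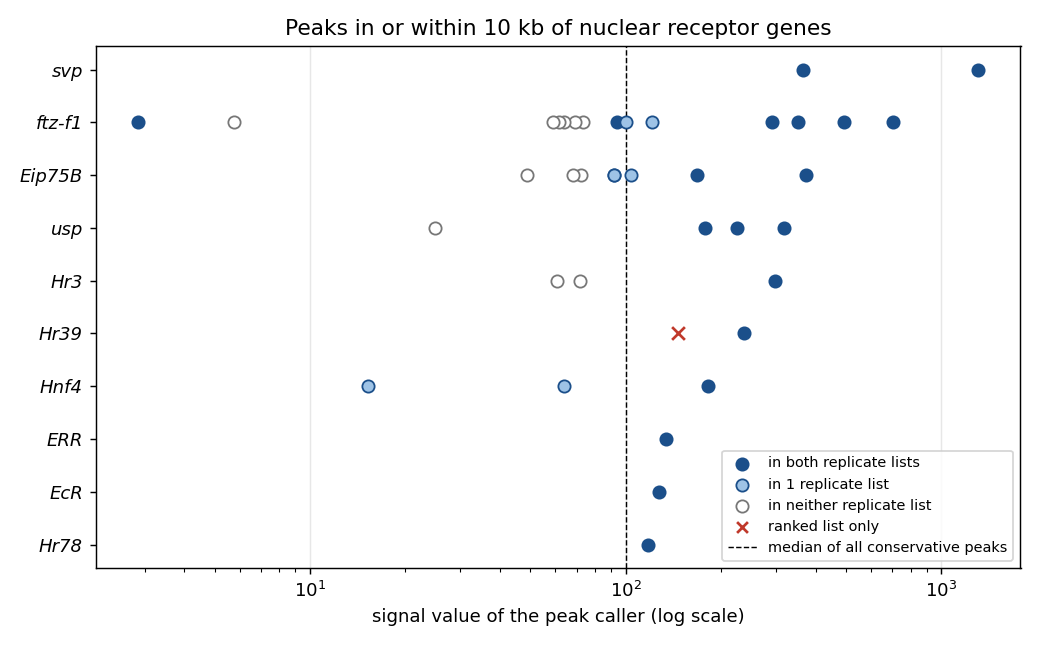
Each point is a peak in or within 10 kb of the gene named at the left, at its signal value on a log axis, shaded by whether the thresholded lists of both replicates, of 1 or of neither overlap it. The cross is the ranked peak at Hr39 (147), the dashed line is the median of all 3006 peaks (100), and the genes run from svp (1311) to Hr78 (118) by their strongest peak.

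EcR encodes the ecdysone receptor, which binds the hormone. The gene, on 2R from 6087873 to 6169087 on the minus strand, is 81.2 kb long and had a single peak in every thresholded list. Its signal was 128 in the conservative list, where it ranked 1119, and 52.4 in replicate 1 and 60.7 in replicate 2. The peak (6151055 to 6151404) lay in an intron, 5899 bp downstream of the start site of transcripts EcR-RD and EcR-RE, and the nearest start site of any gene was that of tRNA:Asn-GTT-1-1 at 1446 bp. EcR had 0.988 peaks per 100 kb, below the 2.19 over all arms, and none of its 4 start sites was bound in any list.

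usp encodes the partner of EcR and is the fly counterpart of the vertebrate retinoid X receptors. The gene is 3.5 kb long (X, 2038798 to 2042311, minus strand), and none of the 4 peaks near it had a summit inside it. The annotation places usp within the longer gene Actn, which encodes alpha-actinin, on the same strand and with a shared start site. Of the peaks near usp, those of signal 226 and 179 lay in introns of Actn. The peak of signal 179 (2037732 to 2037862; 99 in replicate 1 and 81.3 in replicate 2) was the closest to a usp start site, at 3505 bp. The peak of signal 226 had values of 141 and 87.7 in replicates 1 and 2. The strongest peak, 318, with values of 140 in replicate 1 and 161 in replicate 2, was 192 bp upstream of the start site of moody, a gene for a receptor of the blood-brain barrier glia, and 8001 bp from usp. A peak of signal 25 beside it was in neither replicate list, and each replicate's list held 3 peaks near usp. Which gene these peaks belong to cannot be told from position.

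Eip75B encodes a heme-binding receptor of the early ecdysone response that can repress the activity of Hr3. It is the longest of the 10 genes, at 113.7 kb (3L, 17950953 to 18064696, minus strand), and had 8 peaks, 6 in replicate 1 and 3 in replicate 2. The strongest, in an intron (18003270 to 18003484), had a signal of 373, with 188 in replicate 1 and 184 in replicate 2. Of its 7 start sites only that of Eip75B-RC was bound, by a peak of signal 104 (17999524 to 17999873) centred 122 bp downstream. The replicates' thresholded lists differed at this promoter: the peak had a signal of 80.4 and a score of 1000 in replicate 2, but 28.3 and a score of 222 in replicate 1, where it was not in the thresholded list. A pair of peaks lay beyond the 3′ end of the gene, 1747 and 2382 bp from it. The stronger of this pair had a signal of 169, with 123 in replicate 1 and 55.3 in replicate 2, and the weaker 92.1, with 75.2 and 30.4 in replicates 1 and 2. Both were nearer to the start site of lncRNA:CR45393 than to Eip75B. Intron peaks of 92.2, 72.5, 68.4 and 48.7 made up the rest, and of these only the peak of 92.2 was in a replicate's thresholded list, that of replicate 1.

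Hr3 encodes a receptor related to the vertebrate ROR proteins that induces ftz-f1. The gene (2R, 10203995 to 10237348, minus strand) had 3 peaks, and 1 in each replicate's list. An intron peak (10220005 to 10220172) had a signal of 298, with 116 in replicate 1 and 173 in replicate 2. A second peak, of signal 71.8, was 52 bp downstream of the start site of Hr3-RA, Hr3-RF and Hr3-RH, but neither replicate's thresholded list held it; the ranked lists gave it 38.3 in replicate 1 and 30.2 in replicate 2. That start site is also annotated as the start of CG46321, and another Hr3 start site is shared with CG12912, so the assignment to Hr3 is uncertain. The third, of signal 60.5, lay 1689 bp upstream in an intron of Hdc, the gene of histidine decarboxylase. The other thresholded list added an intron peak of signal 53.7.

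ftz-f1 encodes the partner of the segmentation protein Ftz in the early embryo and, later, a competence factor for the response to ecdysone. It had 14 peaks, the most of all 13968 protein-coding genes, followed by hth and Smr with 11 each and CG4004 and sbb with 10 each. Its 50.7 kb (3L, 18750607 to 18801309, minus strand) and the 10 kb on either side held 19.8 peaks per 100 kb. The count rests on the lists that draw on both replicates. It was 15 in the other thresholded list, where ftz-f1 again ranked 1, but 8 in replicate 1 (rank 4) and 6 in replicate 2 (rank 18). Of the 14 peaks 13 had their summit inside the gene, the highest such count, and 12 remained when peaks that overlap each other were merged. That setting, which was added once the data were known, also left ftz-f1 at rank 1.

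The strongest ftz-f1 peak (18801319 to 18801659) had a signal of 702, rank 237, with 390 in replicate 1 and 308 in replicate 2. Its summit lay 171 bp upstream of the start site of ftz-f1-RB and 168 bp from that of the noncoding RNA gene lncRNA:CR45939, which starts 3 bp away on the same strand. The start sites of ftz-f1-RA and of ftz-f1-RC and ftz-f1-RD, which lie within the gene, were not bound in any list. The intron peaks that follow were at 18759297 to 18759537 with a signal of 491 (265 in replicate 1, 225 in replicate 2) and at 18789478 to 18789675 with 351 (186 in replicate 1, 158 in replicate 2). The next, at 18771823 to 18772008, had 292 (155 in replicate 1, 157 in replicate 2). These 4 were in both replicate lists. The fifth, at 18787833 to 18788182 over the GA repeat, had a signal of 121. It was thresholded in replicate 1 (59.1, score 1000) and not in replicate 2, where the signal was 62 and the score 33. The other 9 ftz-f1 peaks had signals from 2.85 to 100, and 6 of the 14 were in neither replicate's thresholded list.

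Hr39 encodes the closest fly relative of ftz-f1. The gene (2L, 21237250 to 21259675, plus strand) had a single thresholded peak in each list, in an intron (21251887 to 21252035), 14713 bp from its only start site. The signal was 238, with 126 in replicate 1 and 110 in replicate 2. The ranked list held a further peak at the promoter, of signal 147 and score 1000 (21237321 to 21237670), centred 246 bp downstream of the start site. No thresholded list held this peak, although both ranked replicate lists gave it a score of 1000, with signals of 93 in replicate 1 and 53.3 in replicate 2. It was the single peak at the 10 genes, of 124 on all arms, that scored at least 830 and was missing from the conservative list. With it Hr39 would be bound at its TSS.

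Hr78 encodes a receptor related to vertebrate TR2 and TR4. Its gene is 3.5 kb long (3L, 21494019 to 21497494, minus strand) and had the same single peak in each list (21496954 to 21497303). The signal was 118, with 60.5 in replicate 1 and 61.7 in replicate 2. The summit was 54 bp from the start site of Hr78-RE, 188 bp from that of Hr78-RF and 365 bp from the start site that the other Hr78 transcripts share. It also lay in asRNA:CR43933, an antisense RNA gene on the opposite strand.

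Hnf4 encodes a receptor that senses fatty acids and drives their breakdown. The gene (2L, 8687226 to 8709611, minus strand) had 3 peaks and 5 start sites. The peak of signal 183 (8692517 to 8692866; 104 in replicate 1, 89.7 in replicate 2) was 292 bp upstream of the start site of Hnf4-RF. The remaining peaks, of 63.8 and 15.3, overlapped each other in an intron of the neighbouring gene raw, over 8 kb from Hnf4, and only replicate 2's thresholded list held a peak there. In the other thresholded list another peak, of signal 71.1, lay 359 bp from the start site of Hnf4-RB, and replicate 2 had a peak of 41 there.

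ERR encodes the fly estrogen-related receptor, a regulator of glucose metabolism. The gene (3L, 8183361 to 8186671, minus strand) had a single peak in each list (8186702 to 8187051). Its signal was 134, with 66.2 in replicate 1 and 68.6 in replicate 2. The summit was 206 bp upstream of ERR-RA and 20 bp from the start site of the autophagy gene Atg18a, which is read in the opposite direction and starts 186 bp from ERR. Binding at ERR and at Atg18a cannot be told apart here.

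svp encodes the fly counterpart of the vertebrate COUP-TF receptors. The gene (3R, 12258737 to 12302785, plus strand, 44.0 kb) had 2 peaks in every thresholded list, among them the strongest peak of the 10 genes. At 12280835 to 12281158 the signal was 1311, rank 125 and within the top 4.16% of all peaks, with 677 in replicate 1 (rank 144) and 634 in replicate 2 (rank 107). The summit was 119 bp upstream of the start site of svp-RA and 161 bp upstream of that of svp-RB, svp-RE and svp-RF. The distal start site, of svp-RC, was not bound in any list. A second peak 2023 bp upstream of svp-RA (12278991 to 12279181) had a signal of 366, with 231 in replicate 1 and 122 in replicate 2.

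**Figure D3:**
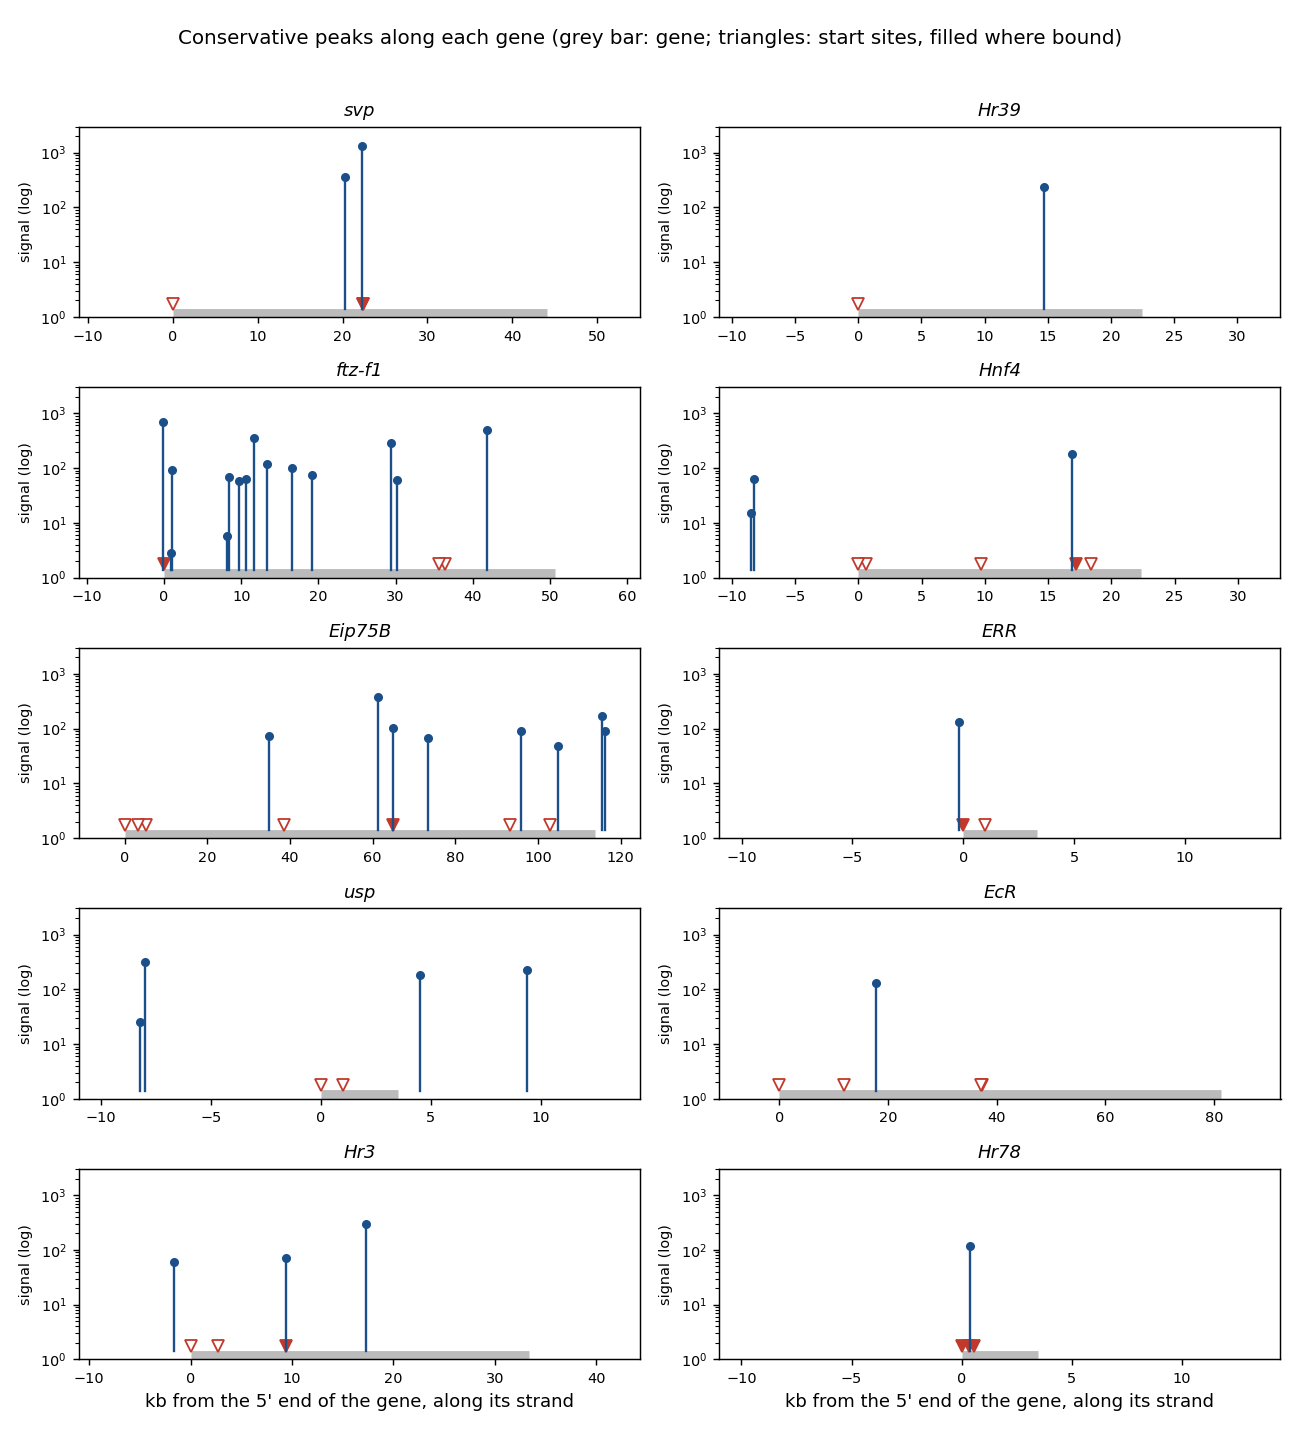
Stems mark the summits of the conservative peaks along each gene, in kb from its 5′ end, with the signal value on a log axis; grey bars are the genes and triangles their start sites, filled where a summit lies within 500 bp. ftz-f1 carries 14 stems and Eip75B 8, while EcR, Hr39, Hr78 and ERR carry 1 each and the stems at usp all fall outside the gene.

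Introns were the usual place of these summits. Of the 38 peaks 25 (65.8%) had their summit in an intron, against 34.3% of all peaks. A further 9 (23.7%) were within 500 bp of a start site of any gene, against 47.2%. Most of the intron summits were at ftz-f1 and Eip75B, and some lay in introns of the neighbouring genes Actn, Hdc and raw. The receptor peaks were chosen for lying in or near genes, most of them long, while the shares over all peaks cover the whole arms. Whether the receptor genes differ in this from other genes of such length was not tested. The 2 intergenic summits (5.26%, against 13.5%) were those beyond the 3′ end of Eip75B, and the 2 in 5′ UTRs (5.26%, against 1.13%) were an overlapping pair at ftz-f1. No summit lay in coding sequence or a 3′ UTR. The 7 receptor promoters with a peak fell into 4 with the summit upstream of the nearest start site of the gene, at svp, ftz-f1, Hnf4 and ERR (1311, 702, 183 and 134), and 3 with the summit downstream, at Hr78, Eip75B and Hr3 (118, 104 and 71.8). The start site of the receptor gene itself was the nearest of any gene for 24 of the 38 summits. Of these 12 were at ftz-f1 and 6 at Eip75B, and 0 at EcR, usp, Hr39 and ERR. No such count is given for other genes.

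Of the 38 peaks 19 (50%) were overlapped by a peak of both replicates' thresholded lists, against 45.8% of all peaks. A further 4 were in replicate 1 only, 3 in replicate 2 only, and 12 (31.6%) in neither, against 25.6% of all peaks. The 19 shared peaks had a median signal of 238 and the 12 in neither list a median of 62.7. Each of the 10 genes had at least 1 shared peak, but the share of all protein-coding genes with such a peak was not counted. When the ranked replicate lists were used in place of the thresholded lists, 37 of the 38 peaks were overlapped in both replicates. The ranked lists hold 84640 and 94184 peaks on the arms, so an overlap with them asks little. The share over all peaks is not given for them. The shared peaks correspond to 18 distinct replicate peaks, whose signals in the replicates had a Spearman correlation of 0.85. This is a description across peaks that share the same pair of libraries. The summits of shared peaks moved by a median of 7 bp in replicate 1 and 13 bp in replicate 2 relative to the conservative list.

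**Figure D4:**
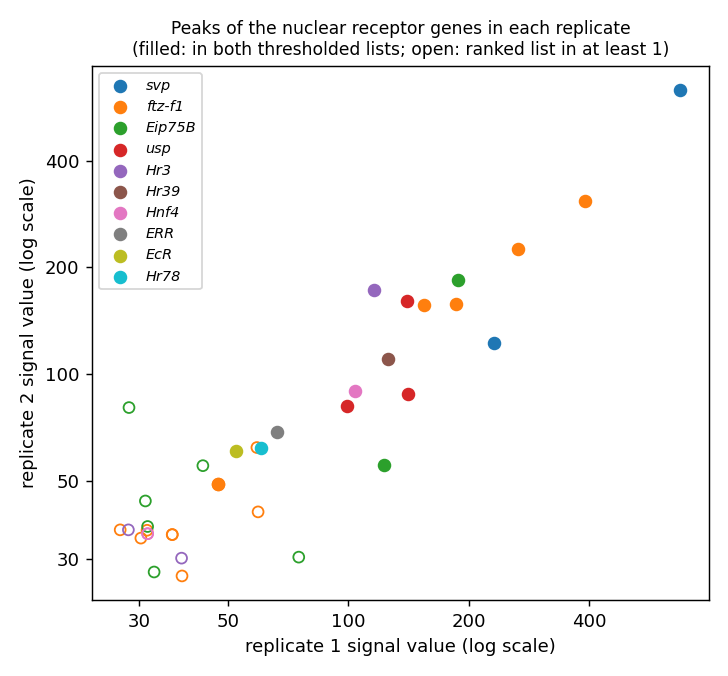
Each point is a peak of the 10 genes with its signal value in the lists of replicate 1 (x axis) and replicate 2 (y axis), both on log axes. Filled points are in both thresholded lists, from 47.2 and 48.8 at ftz-f1 to 677 and 634 at svp. Open points, taken from a ranked list in at least 1 replicate, reach 75.2 in replicate 1 and 80.4 in replicate 2, both at Eip75B. On each axis they overlap the lower filled points.

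Peak shape and overlap bear on these counts. Of the 38 peaks 25 were exactly 350 bp wide, as were 74.6% of all peaks, and 13 were narrower. Apart from a peak of signal 25 next to moody, the narrower ones were in both replicate lists with signals of 179 or more, while the 350 bp peaks had signals from 2.85 to 183. The 4 peaks of lowest signal each overlapped a stronger peak of the same list. They were 2.85 and 5.76 at ftz-f1, beside 93.7 and 69.1, 15.3 near Hnf4 beside 63.8, and 25 near usp beside 318. Merging left 34 peaks. A peak of the other thresholded list overlapped 37 of the 38 by at least 1 bp, all but the Eip75B peak of 48.7, so 1 peak there can overlap a pair here. In all, 10 peaks of the other thresholded list and the replicate lists overlapped no conservative peak. They had signals from 41 to 71.1, and the genes were ftz-f1, Eip75B, Hr3 and Hnf4. At 3 places, 1 each at ftz-f1, Eip75B and Hnf4, a peak of the other thresholded list and a peak of a replicate list mark the same site and were counted separately.

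The rule set these limits. The lowest score among the 38 peaks was 864 (ftz-f1, signal 73.2, and Eip75B, signal 48.7), and the ranked peaks just below the minimum of 830 had scores of 825 and 803 at Eip75B and 755 at Hr3. The most distant summits inside the rule were 8475 and 8276 bp from Hnf4 and 8212 bp from usp. The nearest outside were 11079 bp from EcR (signal 81.7), 12997 bp from ftz-f1 (486) and 13228 bp from Eip75B (57.7).

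Sequence words were counted within 50 bp of the 38 summits, on both strands. The full form of the GAGA element, GAGAGAG, was found at 7 summits (18.4%), against 11.6% of all summits, and the shorter form, GAGAG, which it contains, at 14 (36.8%), against 30.7%. GAGAGAG was present in peaks of signal 366 at svp, 121 and 93.7 at ftz-f1, and 92.2 at Eip75B. It was also in those of 183 and 15.3 near Hnf4, and near usp in that of 179 alone. In windows 500 bp to either side of the 38 summits the full form was found in 1 of 76 (1.32%), against 2.46% of such windows at all peaks, and the shorter form in 12 of 76 (15.8%), against 13.7%. A pair of further words was chosen because they were seen in these windows, so their counts are a description only. GAGCGAG was found at 10 of the 38 summits (26.3%), against 14.2% of all, and in 0 of the 76 side windows, which allows a share of up to 3.95%, against 2.01% of such windows at all peaks. Of all summits, those in the top 10% by signal held it at 40.5%. The word GAGATGG was found at 5 summits (13.2%), against 6.85%.

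Words of nuclear receptor sites were rare at these genes. AGGTCA was found at 2 of the 38 summits (5.26%), both at ftz-f1 (signals 491 and 61.4), against 1.76% of all summits. In the windows 500 bp to either side it was found in 1 of 76 (1.32%), against 2.36% of such windows at all peaks. The extended form TCAAGGTCA, which ftz-f1 and ERR proteins recognise, was at 0 of 38 and at 2 of 3006. A direct repeat of the hexamer with a spacer of a single base, and an inverted repeat of that kind, were at 0 of 38 and 0 of 3006 summits, which allows shares of up to 7.89% and 0.0998%. The DNA replication-related element TATCGATA was also at 0 of 38, against 0.898% of all. The absence of a match says only that these letters are not in the window. The windows at the receptor genes had a median GC content of 47.5%, against 44.6% over all summits.

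Genes that work with these receptors were counted by the same rules. Of 11 other nuclear receptor genes 2 were bound at a TSS, Hr96, a receptor for sterols (signal 166; 89 in replicate 1 and 77.2 in replicate 2), and Hr38, the counterpart of the vertebrate NR4A receptors (119; 57.9 and 58.5 in replicates 1 and 2), against 10.9% of all genes. A peak within 10 kb was found for 7 of the 11, against 45.9% of all genes. The highest of these was at Hr51 (725), and Hr4 had the most peaks, 6. The other 4, Eip78C, Hr83, dsf and tll, had none. Of 18 ecdysone response genes 4 (22.2%) were bound at a TSS, against 10.9% of all genes. These were vri, the gene of a bZIP factor (257), E23, the gene of an ABC transporter (226), Eip63F-1 (87.4) and Blimp-1, which encodes a repressor of ftz-f1 (69.1). In replicate 1 alone only vri was bound, and in replicate 2 alone 3 were, without Blimp-1. A peak lay within 10 kb of 13 of the 18 (72.2%), against 45.9% of all genes, and none within 10 kb of br, the gene of the Broad zinc finger proteins.

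Genes for the synthesis, transport and turnover of ecdysteroids were not bound at a TSS in any thresholded list. The count was 0 of 14, which allows a share of up to 21.4%, against 10.9% of all genes. A peak lay within 10 kb of 6 of the 14 (42.9%), against 45.9% of all genes. Of 10 receptor coregulator genes 2 were bound at a TSS, against 10.9% of all genes, and 6 had a peak within 10 kb, against 45.9%. They were tai, the gene of an ecdysone receptor coactivator, with a signal of 2993 (1735 in replicate 1 and 1277 in replicate 2), and alien, which encodes a corepressor, with 122 (63.4 in replicate 1 and 56.3 in replicate 2). Smr, the gene of a corepressor that binds EcR, was not bound at a TSS but had 11 peaks in or within 10 kb of it, with signals up to 378. Over all 4 of these lists 8 genes were bound.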

How the data were processed

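Per the labels, chromatin of embryos carrying CG10321-eGFP was immunoprecipitated with an anti-GFP antibody in 2 biological replicates. The authors deposited peak lists in dm6 coordinates. As deposited, column 5 is a score that the authors gave each peak when they ranked peaks by reproducibility (whole numbers up to 1000). Column 7 as deposited is the signal value of the authors' peak caller, and column 10 the distance from the peak start to the summit. Per the deposited file lists, thresholded and ranked lists were made for each replicate and for both together. The aligner, the peak caller, the control and the read depth were not stated there. In the series' ranked lists 16 columns with values of unnamed single inputs were not used. Gene models came from Ensembl release 115 (18277 genes without transposons), and sequences are credited to the RefSeq copy of that assembly (BDGP6, dm6).

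Summits were assigned to genes and start sites with Python 3.11.15, pandas 2.3.3 and NumPy 2.4.6, after the counting was tested on simulated peaks and planted words. Members, gene lists and words were chosen with earlier results of these data known. The rule for names covered all 10 receptor genes with up to 5 peaks each, the up to 4 bound genes of each other list with the highest signal, and neighbours whose start site is nearer. Weaker peaks of ftz-f1 and Eip75B, the genes with 10 or more peaks, and unbound genes of the other lists were named in addition, after their values were seen. The symbols phm, EcI and DOR found no match and were left out. Peak sets were compared at an overlap of at least 1 bp. No test was run, since there is a single group. Limits for a count of 0 use 3 counts and cover counting error alone. Alternatives were the other lists, stricter signal, distance, overlap and window settings, and, added later, merged peaks and nearest start sites.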

Additional observations from a re-analysis of the deposited data

Results flagged for a closer look

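A signal in data outside the main list was found at the promoter of Hr39. The ranked list held a peak of signal 147 there, with the highest score the lists give, 1000, and none of the thresholded lists held it. Both ranked replicate lists gave a peak at the same place a score of 1000, with signals of 93 in replicate 1 and 53.3 in replicate 2. Why the thresholded lists lack it was not tested.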

How the results depend on the processing

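All 10 genes kept a peak in each list, among peaks of at least the list's median signal and within 5 kb. The count was 8 inside the gene, against 9.12% of all genes, and 7 when each peak went only to the protein-coding gene of the nearest start site. Genes bound at a TSS numbered 5 to 8 over the alternatives, against 7. Over the thresholded lists 7.9% to 12.3% of all genes were bound at a TSS. Shares of all genes are not given for the settings of median signal, 5 kb, nearest start site or other TSS distances. The count of 38 peaks was 22 to 25 in the single replicate lists and 20 among peaks of at least the median signal. ftz-f1 ranked 4 to 18 in the single replicate lists and 6 among those stronger peaks, against 1. The median signal of 102, against a list median of 100, was 232 among the stronger peaks and 119 after merging. It was 104 in replicate 1, against a list median of 70.4, and 88.7 in replicate 2, against 72.6. The median of the strongest peaks, 268, was 121 to 136 in the replicate lists, where signal values run lower, 210 within 5 kb and 298 by the nearest start site. Of the peaks 37 were shared with both ranked replicate lists, which are far longer, against 19 with the thresholded lists. GAGAG, at 36.8% of summits, was at 44% to 54.5% in the replicate lists, 45% among the stronger peaks, 57.9% within 100 bp and 28.9% within 25 bp. The shares over all summits at these settings are not given, so these values show no difference from other peaks. In the conservative list 30.7% of all summits held GAGAG, and 52.8% of those in the top 10% by signal. Other listed genes bound, 8, numbered 5 to 8 in the replicate lists and 3 within 200 bp. The cause of these shifts was not tested, except where the setting itself keeps fewer or stronger peaks or a wider or narrower window. In all, 63 of 88 values under an alternative stayed within the limits set for them and 25 moved. No paired analysis was possible because both samples belong to 1 group. Depth is unknown, so a gene without a peak is one where none was detectable in these lists.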

Other observations

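Several genes of the ecdysone pathway had peaks in or within 10 kb of them without a summit at a start site. That is common, since 45.9% of all protein-coding genes had a peak by this rule and 10.9% were bound at a TSS. The genes named here were picked after their values were seen. Among response genes MsrA had 4 such peaks with signals up to 176, and ImpL2, which encodes a secreted insulin-binding protein, had 3 with signals up to 189. Kr-h1, better known for the response to juvenile hormone, had 1 of signal 238. Of the genes for ecdysteroid production, mld had 1 peak of signal 2468 within its window and ecd had 2 with signals up to 328, while no peak lay near spo, spok, nvd or shd. Of the coregulator genes Ncoa6 had 1 peak of signal 344. Other genes lie in these windows too, and which gene each peak belongs to was not tested.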
